A study of Mus musculus with 8 samples.

Results

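The ATP-binding cassette (ABC) transporter family was described here through the 50 genes, of 41730 rows in the deposited count table, whose symbols follow the pattern of subfamilies A to G (Abca to Abcg, a number and sometimes a letter). The rule for membership uses the symbol alone and no measured value, although the family was taken up with earlier results of these data known. The cells were mouse OT-I CD8+ T cells, which recognise an ovalbumin peptide through a transgenic receptor, sorted by flow cytometry for RNA sequencing. They had been cultured with dendritic cells grown from bone marrow, lacking the liver X receptors (LXR) and loaded with that peptide, and received either 2 µM RGX-104, a synthetic LXR agonist (4 libraries), or the vehicle DMSO (control, 4 libraries). The absence of LXR from the dendritic cells is thus shared by both groups, whereas the labels give the T cells no alteration of LXR. The labels do not say how many animals or cultures the libraries came from, so the p-values rest on the spread among these libraries and may reflect technical variation alone.

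ABC proteins bind and hydrolyse ATP, and most of them use that energy to move lipids, peptides, drugs, metal cofactors or conjugated metabolites across membranes. Subfamilies A and G hold many lipid exporters, B and C hold the classical drug efflux pumps along with organelle transporters, D works in peroxisomes and lysosomes, and E and F have no membrane part and act in translation. LXRs are nuclear receptors for oxidised sterols that bind DNA with the retinoid X receptor, and Abca1 and Abcg1, the exporters of cellular cholesterol and phospholipid to lipoproteins, are textbook targets of theirs.

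Of the 50 members, 29 had enough counts to be tested. Library totals were 30642316 to 35244624 counts with RGX-104 and 33942140 to 37714355 counts in controls. Levels are given as CPM, the usual read count normalised to library depth, with libraries scaled by the trimmed mean of M values (TMM), and an adjusted p under 0.05 in edgeR's quasi-likelihood test over all 13290 genes tested counted as a call. By this rule 5 members were higher with RGX-104 (Abca1, Abcg1, Abca2, Abca7 and Abcb1b) and 0 were lower. Over all genes tested 8.95% were called, 4.82% as higher and 4.13% as lower. At an unadjusted p under 0.05 the edgeR test gave 9 members higher and 2 lower, where 22.2% of all genes tested had such a p, 11.5% as higher and 10.7% as lower, and neither DESeq2 nor limma-voom called any member lower. In bulk RNA, a different number of cells that express a gene and a different amount of its RNA per cell cannot be told apart.

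**Figure D1:**
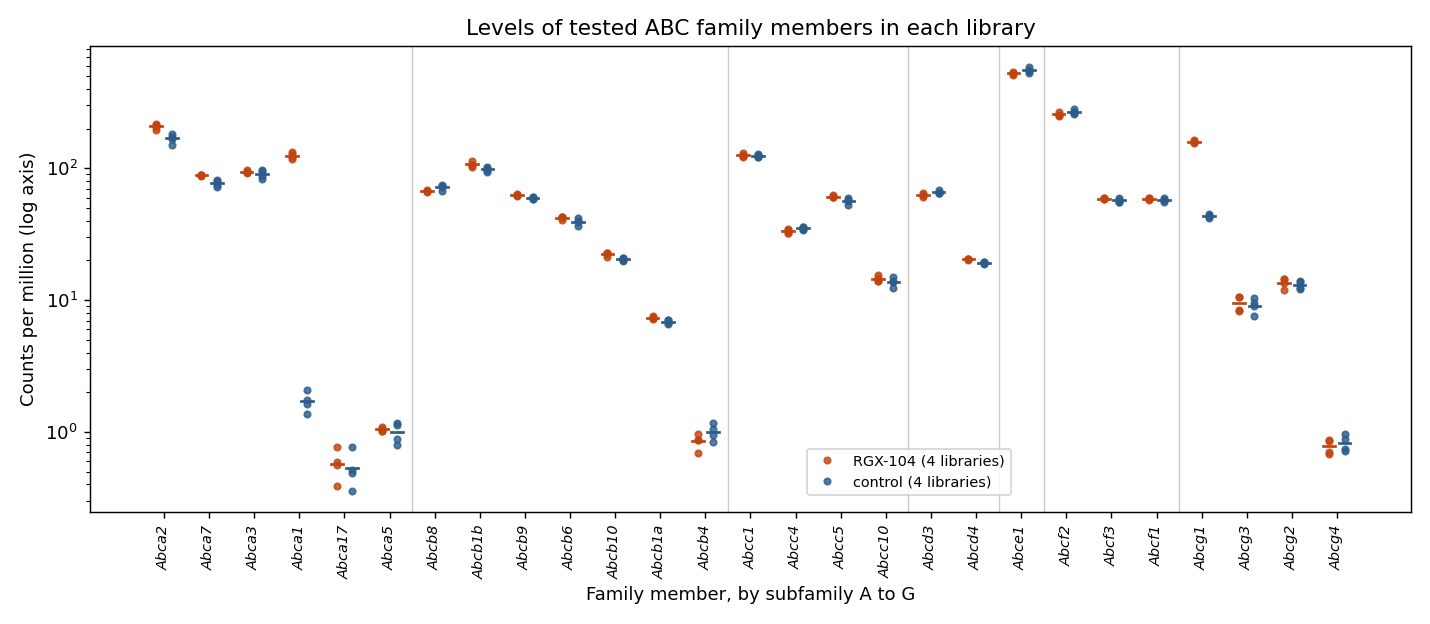
Level of 27 of the 29 tested members in CPM (log axis) in the 4 RGX-104 libraries (orange, left) and the 4 control libraries (blue, right), ordered by subfamily, with a bar at each mean. Abca1 stood at 118 to 132 CPM with RGX-104 and at 1.38 to 2.09 CPM in controls, Abcg1 stood at 156 to 163 CPM against 41.6 to 45.1 CPM, and most other pairs of groups lay close together.

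The cholesterol exporter Abca1, on chromosome 4 from 53030789 to 53159988 (GRCm38), had 118, 128, 132 and 121 CPM in RGX-104 libraries, against 1.75, 2.09, 1.38 and 1.64 CPM in control libraries. Every RGX-104 library was far above every control library. The change was 72.9-fold (95% interval 66.3 to 80.1), a log2 fold change of 6.19 ± 0.07 (SE), with an edgeR adjusted p of 1.16e-27. It ranked 1 among the 13290 genes by size of increase. In raw reads, Abca1 had 3653 to 4530 counts per RGX-104 library and 50 to 71 counts per control library, so the control level was low but measured.

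Because Abca1 is the member with the largest change and its promoter is known for an LXR-bound element close to the start of transcription, its promoter is shown. The sequence is from RefSeq (GRCm38.p6), chr4:53159846-53160145 on the minus strand, from 250 bases before to 50 bases after the start site, with capitals on the stretch that resembles a DR4 element.
Abca1: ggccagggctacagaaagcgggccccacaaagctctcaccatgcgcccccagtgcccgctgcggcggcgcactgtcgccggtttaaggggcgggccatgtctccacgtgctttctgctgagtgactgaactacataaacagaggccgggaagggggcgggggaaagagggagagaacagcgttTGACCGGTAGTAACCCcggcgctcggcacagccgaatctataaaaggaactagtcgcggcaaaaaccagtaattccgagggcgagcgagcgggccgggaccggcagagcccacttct

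DR4 elements, the classical LXR sites, are a pair of AGGTCA repeats in the same direction with 4 letters between them. With at most 1 mismatch in each repeat and both strands searched, the Abca1 window held none. The capitalised stretch, at -67 to -52 from the start site, reads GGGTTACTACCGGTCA on the opposite strand and has 2 mismatches in the first repeat and 1 in the second. When up to 2 mismatches per repeat and 3 in both were allowed, a rule chosen after this promoter was read, 18.8% of all 32851 promoters in the table held a match, as did 15.7% of the promoters of genes tested and 18.8% of those of genes called higher. A match of this kind is therefore common, and it describes letters, not binding. RefSeq promoters were at hand for 38 members (45 promoters), and Abcc10 was the only other member with a match, under the stricter rule as well, where 1.75% of all promoters had one. The promoters of Abca2, Abca7 and Abcb1b held none, and that of Abcg1 was not analysed here.

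Abcg1, a smaller exporter that passes cholesterol to high-density lipoprotein, had 157, 163, 159 and 156 CPM with RGX-104, against 45.1, 43.2, 41.6 and 43.2 CPM in controls. The groups did not overlap and each was tight. The change was 3.67-fold, with a log2 fold change of 1.88 ± 0.03 (SE, 95% interval 1.81 to 1.94) and an edgeR adjusted p of 1.43e-24, and ranked 3 among all genes tested. The gene lies on chromosome 17 from 31057694 to 31117984.

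Abca1 and Abcg1 did not move by the same factor. There were 0.755, 0.789, 0.827 and 0.777 Abca1 reads per Abcg1 read in the RGX-104 libraries, against 0.0388, 0.0484, 0.0331 and 0.0381 in control libraries. The log2 of this ratio averaged -0.35 ± 0.0548 with RGX-104 and -4.67 ± 0.226 in controls (SD, n = 4 each), a difference of 4.32 (two-sided exact permutation p = 0.0286, the smallest that 70 relabellings allow). Reads per kilobase of exon place the exporters on a common scale, on which Abca1 had 12.1 CPM per kb with RGX-104 and 0.166 in controls, and Abcg1 had 21.7 with RGX-104 and 5.93 in controls. With RGX-104 Abca1 thus ranked 11 of the 29 tested members by level per kb and Abcg1 ranked 4. In controls they ranked 25 and 16.

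Dendritic cells and macrophages also express both exporters, so markers of cells left in the sort are given beside them. Of 15 myeloid and dendritic markers 5 could be tested, and by edgeR 1 was higher (Cd74, log2 fold change 0.32 ± 0.04, adjusted p = 6.12e-06) and 0 were lower, as with DESeq2 and limma-voom, while an unadjusted p under 0.05 gave 2 higher and 0 lower. The whole list summed to 86.6 to 89.6 CPM in RGX-104 libraries and 76.3 to 82.9 CPM in control libraries. Most of that came from Cst3 and Cd74. The other 13 markers summed to 5.54 to 6.47 CPM with RGX-104 and 4.27 to 5.57 CPM in controls. Lyz2, Csf1r, Cd14 and Adgre1 had at most 5, 2, 4 and 2 counts in any library, and no marker of the list was at 0 throughout. Of the dendritic markers, Zbtb46 had 87 to 133 counts per library. It averaged 3.77 ± 0.454 CPM with RGX-104 and 2.91 ± 0.410 CPM in controls (SD, n = 4 each; edgeR adjusted p = 0.0552). Itgax had 17 to 34 counts (adjusted p = 0.554) and Flt3 had 4 to 17 (adjusted p = 0.665). Xcr1 and Clec9a had at most 7 and 1. The part of such cells in the members' changes, those of Abca1 and Abcg1 included, was not tested. Of the T cell markers, Cd8a stood at 809 ± 6.26 CPM with RGX-104 and 877 ± 18.1 CPM in controls, and Cd3e at 295 ± 11.1 CPM with RGX-104 and 325 ± 10.6 CPM in controls (SD, n = 4 each), whereas Cd2, a pan-T marker, had at most 6 counts in any library. The reason for the low Cd2 counts was not tested, and they are not read as a lack of expression. Of the 8 T cell markers tested 1 was higher and 4 were lower by edgeR, where 8.95% of all genes tested were called. The marker called higher was Lck, at 93.9 ± 1.07 CPM with RGX-104 and 87.8 ± 2.31 CPM in controls (edgeR adjusted p = 0.0395). DESeq2 called 2 of these markers higher and 4 lower. Cd4 had 0.194 to 0.402 CPM with RGX-104 and 0.0809 to 0.295 CPM in controls, and the B cell and NK cell markers summed to at most 0.440 and 0.0309 CPM with RGX-104 and 0.442 and 0.0287 CPM in controls.

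The 3 other members called higher changed far less. Abca2, a transporter of late endosomes and lysosomes linked to sterol and sphingolipid handling, had 196, 216, 214 and 205 CPM with RGX-104, against 174, 183, 168 and 151 CPM in controls. The lowest RGX-104 library stood above the highest control, although control replicate 4 was well under the other controls. The change was 1.23-fold (95% interval 1.13 to 1.34; edgeR adjusted p = 0.00694), and with 1 surrogate variable in the fit it missed the threshold (adjusted p = 0.0559).

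Abca7, a close relative of Abca1 that exports phospholipid and takes part in phagocytosis, had 89.1, 89.2, 88.4 and 87.2 CPM with RGX-104, against 79.4, 81.5, 74.1 and 72.3 CPM in controls. The RGX-104 libraries agreed closely and all lay above the controls. The log2 fold change was 0.20 ± 0.04 (SE; edgeR adjusted p = 2.65e-04), an increase of 15.2%.

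Abcb1b, which with Abcb1a encodes the mouse P-glycoproteins, the multidrug efflux pumps, had 114, 103, 106 and 106 CPM with RGX-104, against 101, 97.1, 93.7 and 102 CPM in controls. The groups came within about 1 CPM of each other without overlapping. The change was 1.09-fold (95% interval 1.04 to 1.14; edgeR adjusted p = 0.0232). This call was lost without RGX-104 replicate 1 (adjusted p = 0.121), without control replicate 2 (0.0581), without control replicate 3 (0.117) and with 1 surrogate variable (0.214).

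**Figure D2:**
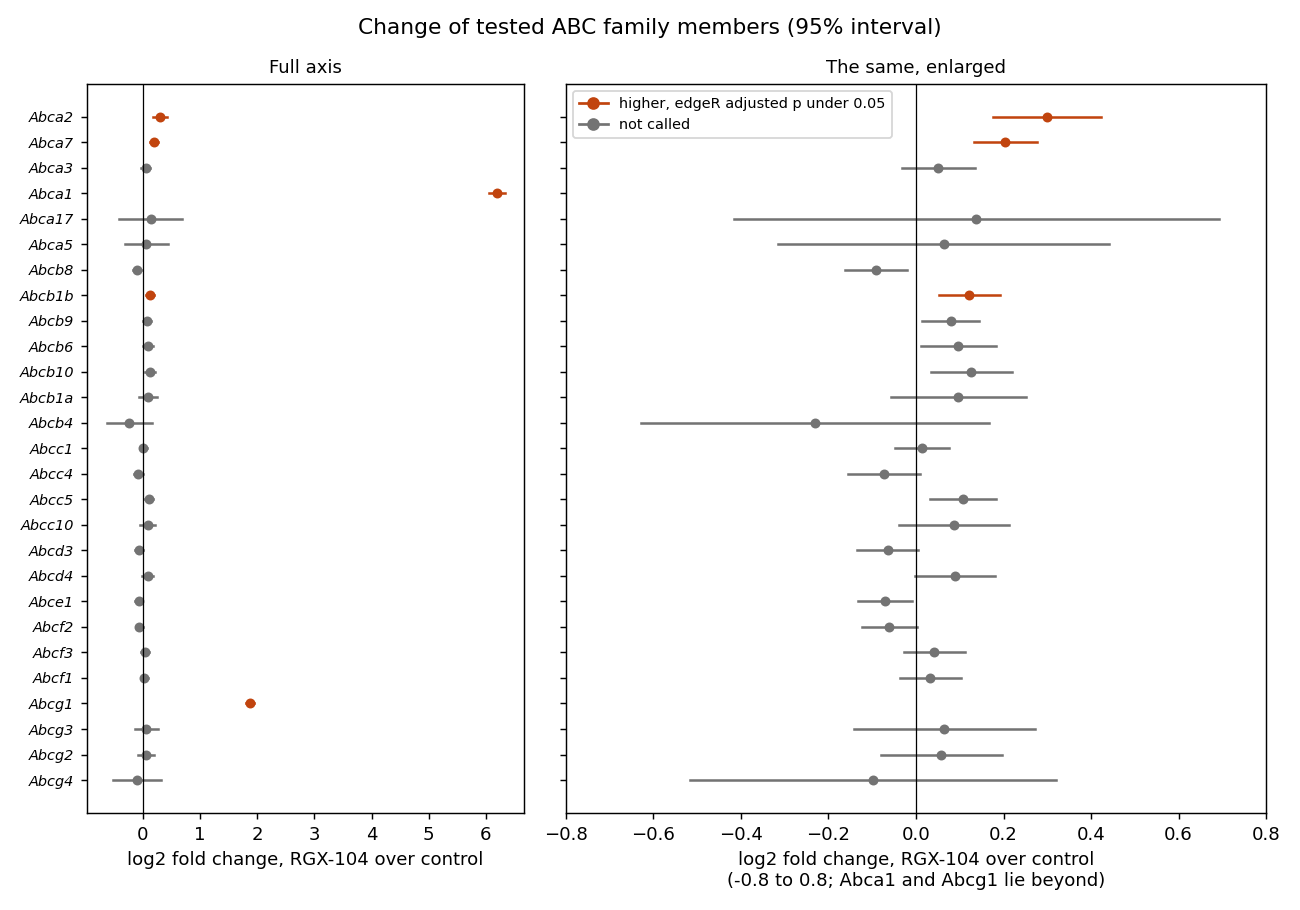
Log2 fold change of 27 of the 29 tested members, RGX-104 over control, with its 95% interval, ordered by subfamily, on the full axis (left) and enlarged around 0 (right, where Abca1 and Abcg1 lie beyond the axis). Abca1 at 6.19 and Abcg1 at 1.88 stand apart, the other called members lie between 0.12 and 0.30, and the wide intervals belong to Abca17, Abca5, Abcb4 and Abcg4, members of about 1 CPM or less.

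The 2 P-glycoprotein genes lie side by side on chromosome 5 with Abcb4, the bile phospholipid floppase, and differ in level. Abcb1a, 49571 bases upstream of Abcb1b, had 7.22, 7.27, 7.30 and 7.63 CPM with RGX-104, against 6.68, 7.11, 7.09 and 6.63 CPM in controls, and did not pass the test (edgeR adjusted p = 0.475), although its groups did not overlap. Abcb4, 27299 bases past the end of Abcb1b, averaged 0.850 ± 0.113 CPM with RGX-104 and 1.00 ± 0.145 CPM in controls (SD, n = 4 each; edgeR adjusted p = 0.518). Per kilobase, Abcb1b stood at 13.4 and Abcb1a at 1.34 CPM per kb with RGX-104, and at 12.3 and 1.25 CPM per kb in controls. Abcb1a and Abcb1b are near copies, so reads may have been split between them.

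The promoters of these neighbours are shown because they differ in CG pairs, printed in capitals, as the genes differ in level. Both are RefSeq sequences of GRCm38.p6 on the plus strand, chr5:8566841-8567140 for Abcb1a and chr5:8797897-8798196 for Abcb1b.
Abcb1a: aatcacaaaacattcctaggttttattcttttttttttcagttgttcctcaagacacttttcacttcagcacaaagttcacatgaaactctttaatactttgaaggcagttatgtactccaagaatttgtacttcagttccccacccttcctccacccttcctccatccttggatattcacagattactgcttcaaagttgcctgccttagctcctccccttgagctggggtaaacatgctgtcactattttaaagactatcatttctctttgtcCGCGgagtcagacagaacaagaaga
Abcb1b: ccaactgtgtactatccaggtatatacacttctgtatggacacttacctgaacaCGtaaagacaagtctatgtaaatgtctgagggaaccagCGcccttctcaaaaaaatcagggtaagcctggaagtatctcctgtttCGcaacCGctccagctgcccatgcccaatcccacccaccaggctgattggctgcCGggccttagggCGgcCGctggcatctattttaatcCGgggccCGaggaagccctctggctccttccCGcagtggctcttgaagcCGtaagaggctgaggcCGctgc

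The Abcb1a window holds 2 CG pairs and 40.3% G and C, and the Abcb1b window 12 CG pairs and 55.0% G and C. The parallel with level did not extend to Abcb4, which had 21 CG pairs. Its level was below both, at 0.0906 CPM per kb with RGX-104 and 0.107 in controls. The ratio of CG pairs to the number expected from base content is a usual measure of CpG-rich promoters, for which 0.6 is a customary limit. It exceeded 0.6 in 18 of the 22 tested members with a RefSeq promoter, against 4 of the 16 members not tested. Over the whole table it did so in 72.9% of genes tested and in 16.9% of genes not tested, so the family resembled other genes in this. The 4 tested members below the limit were Abcb1a (0.181), Abcg3 (0.408), Abcb1b (0.535) and Abcb6 (0.547). Abca14, at 0 counts, had a ratio of 0.983, so a CpG-rich window did not go with counts in every member.

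**Figure D3:**
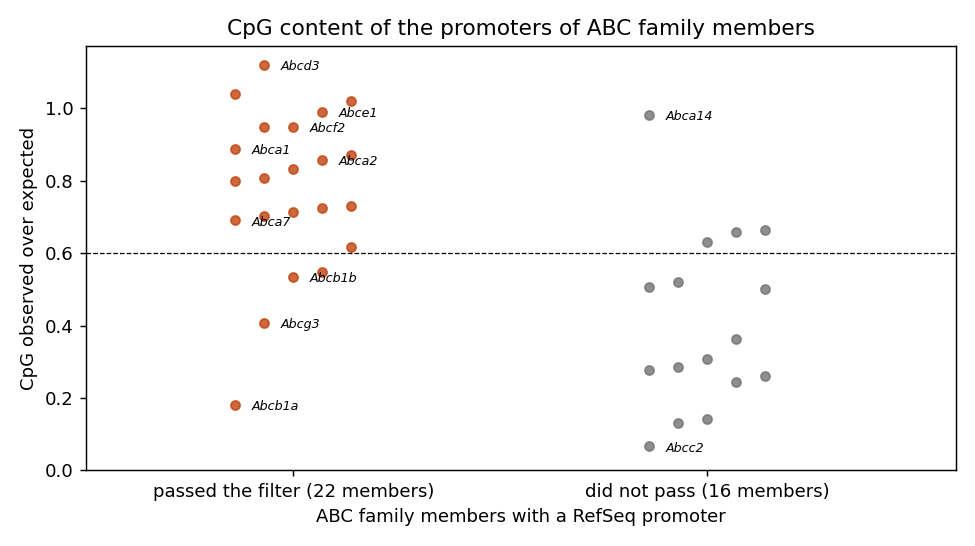
Ratio of observed to expected CG pairs in the promoter windows of 22 members that passed the filter on low counts and 16 that did not, with the customary limit of 0.6 as a dashed line. For a gene with several promoters the highest ratio is plotted. Tested members had a median of 0.803 and the others 0.335, and Abcb1a and Abca14 lie on the unusual side of their groups.

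Among the remaining A members, Abca3, known for loading surfactant lipid in the lung, averaged 94.0 ± 2.65 CPM with RGX-104 and 90.8 ± 6.23 CPM in controls (SD, n = 4 each; edgeR adjusted p = 0.481). Abca5 and Abca17 were near 1 CPM or below in both groups and did not pass the test. The spans of Abca17 and Abca3 overlap by 138 bases in RefSeq. In the A subfamily as a whole 3 of 6 tested members were higher and 0 lower by edgeR, where 4.82% of all genes tested were higher. All 6 log2 fold changes were above 0, with a median of 0.17, as were 6695 of the 13290 genes tested. The 95% intervals of Abca3 (-0.03 to 0.13), Abca5 (-0.32 to 0.44) and Abca17 (-0.42 to 0.69) included 0.

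Of the 8 tested members of subfamily B, Abcb1b alone was called by edgeR. Abcb8, a transporter of the inner mitochondrial membrane, averaged 67.2 ± 0.760 CPM with RGX-104 and 71.7 ± 3.24 CPM in controls (edgeR adjusted p = 0.102), and it was called lower in the fit without control replicate 4 (adjusted p = 0.0193). Its RefSeq span overlaps that of Cdk5, with no shared exon bases found in the annotation used for lengths. Abcb10, needed for heme formation in red cell precursors, averaged 22.3 ± 0.649 CPM with RGX-104 and 20.4 ± 0.540 CPM in controls, without overlap (edgeR adjusted p = 0.0823). The porphyrin transporter Abcb6 (adjusted p = 0.165) and the lysosomal peptide transporter Abcb9 (adjusted p = 0.135) did not pass the edgeR test either, and 55.2% of the exon bases of Abcb6 lie in another annotated gene on the same strand.

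Some of these transporters, though not all, serve iron-sulfur and heme formation. Among 22 tested genes of those pathways, 1 was higher and 2 were lower by edgeR, with a median log2 fold change of -0.03. The shares over all genes tested were 4.82% higher and 4.13% lower. Cpox, an enzyme of heme synthesis, averaged 153 ± 1.49 CPM with RGX-104 and 186 ± 8.47 CPM in controls (edgeR adjusted p = 2.45e-07). Nfs1, which supplies sulfur for the clusters, was lower (69.8 against 75.7 CPM), and Ppox, which follows Cpox in the pathway, was higher (32.7 against 29.8 CPM), a call that DESeq2 did not make.

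No member of subfamily C was called by edgeR or DESeq2, and 1 of its 4 tested members had an unadjusted p under 0.05. Abcc1, which exports glutathione conjugates and leukotriene C4 and had the highest level per kb of this subfamily, had 122, 124, 130 and 125 CPM with RGX-104, against 128, 126, 121 and 121 CPM in controls. The groups were interleaved, and the 95% interval of the log2 fold change ran from -0.05 to 0.08. The exporter of cyclic nucleotides and prostanoids Abcc4 averaged 33.3 ± 1.34 CPM with RGX-104 and 35.1 ± 0.795 CPM in controls (edgeR adjusted p = 0.288).

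Abcc5, whose product exports cyclic nucleotides and other organic anions, lay just outside the threshold. It had 60.1, 60.4, 60.8 and 62.9 CPM with RGX-104, against 59.6, 57.7, 56.2 and 53.1 CPM in controls (edgeR adjusted p = 0.0655). The groups did not overlap, and limma-voom (adjusted p = 0.0487), upper-quartile scaling (0.0424) and the fit without control replicate 1 (0.0212) called it higher. Abcc10, a broad-range efflux pump, averaged 14.6 CPM with RGX-104 and 13.8 CPM in controls (edgeR adjusted p = 0.430). Of 10 tested genes of glutathione and leukotriene metabolism, Gstt2 (57.4 CPM with RGX-104 and 50.3 CPM in controls) was higher and Gsto1 (31.6 and 34.8 CPM) was lower, with a median log2 fold change of -0.04.

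Subfamily D, whose members bring fatty acids into peroxisomes or cobalamin out of lysosomes, had 0 of 3 tested members called by edgeR, DESeq2 or limma-voom and 0 with an unadjusted p under 0.05. Abcd3, its highest member per kb and a major protein of the peroxisome membrane, had 65.0, 63.1, 60.7 and 63.2 CPM with RGX-104, against 65.1, 64.8, 64.8 and 68.7 CPM in controls. The groups overlapped (edgeR adjusted p = 0.263). Abcd4, the lysosomal member, averaged 20.5 ± 0.138 CPM with RGX-104 and 19.2 ± 0.356 CPM in controls, without overlap (edgeR adjusted p = 0.242). Of 16 peroxisome genes tested, 2 were higher with RGX-104, among them the fatty acid oxidase Acox3 (log2 fold change 0.17 ± 0.05), and 0 were lower by edgeR, DESeq2 or limma-voom (3 higher and 1 lower at an unadjusted p under 0.05), with a median log2 fold change of 0.00.

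The cytosolic subfamilies held the most abundant members. Abce1, which splits ribosomes for reuse, had 526, 514, 526 and 534 CPM with RGX-104, against 525, 542, 554 and 585 CPM in controls, and missed the threshold (edgeR adjusted p = 0.147). Without control replicate 1 it was called lower (adjusted p = 0.0381). Abcf2, the highest member per kb of all (99.8 with RGX-104 and 104 CPM per kb in controls), had 255, 251, 253 and 267 CPM with RGX-104, against 269, 257, 263 and 281 CPM in controls (edgeR adjusted p = 0.240). Abcf1 and Abcf3, related translation factors, did not pass the test (adjusted p = 0.621 and 0.509). Their partners in translation initiation and ribosome rescue had 0 of 15 called by edgeR, DESeq2 or limma-voom (median log2 fold change -0.04), with 1 higher and 1 lower at an unadjusted p under 0.05.

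Within subfamily G the change was seen in Abcg1. Abcg2, a drug and urate efflux pump, had 14.4, 14.5, 11.9 and 13.6 CPM with RGX-104, against 14.0, 12.2, 12.4 and 13.8 CPM in controls, with the groups mixed (edgeR adjusted p = 0.656). Abcg4, the member most like Abcg1 and known as a sterol exporter of brain, had 0.874, 0.707, 0.681 and 0.848 CPM with RGX-104, against 0.889, 0.737, 0.717 and 0.970 CPM in controls, with the groups overlapping. Its log2 fold change did not pass the edgeR test and had a 95% interval of -0.52 to 0.32, below the 1.88 of Abcg1. Abcg3, a rodent member, averaged 9.46 ± 1.26 CPM with RGX-104 and 9.07 ± 1.14 CPM in controls (edgeR adjusted p = 0.751). Abcg5 and Abcg8, the sterol pump of liver and gut that LXR agonists raise in those organs, had 2 and 5 reads in all 8 libraries together and were not tested.

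For the 24 tested members that were not called, log2 fold changes ran from -0.23 to 0.14. In the 20 of them with at least 2 CPM in both groups, the 95% intervals of the log2 fold change all lay between -0.16 and 0.27. For Abca17, Abca5, Abcb4 and Abcg4, which were lower, they spread from -0.63 to 0.69. Over all 29 tested members the median log2 fold change was 0.06, against 0.00 over all genes tested. It was above 0 in 20 members, and in 6695 of the 13290 genes tested. The groups did not overlap in 10 members, each time with RGX-104 above. Of all genes tested 14.5% did not overlap, 940 with RGX-104 above and 990 with RGX-104 below.

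The 21 members not tested had at most 3 counts in any library. Those with 0 counts throughout were Abca4, Abca6, Abca8a, Abca9, Abca12, Abca14, Abca15, Abca16, Abcb5 and Abcc8, which allows a level of up to 0.0110 CPM over the 8 libraries (3 counts, covering counting error only). The other 11 were Abca8b, Abca13, Abcb11, Abcc2, Abcc3, Abcc6, Abcc9, Abcc12, Abcd2, Abcg5 and Abcg8. Among all 21 are the bile salt pump Abcb11, the sulfonylurea receptors Abcc8 and Abcc9 and the retinal transporter Abca4, genes known from liver, pancreas, heart and eye. Some of the members not tested were neighbours, such as Abca14, Abca15 and Abca16 in a row on chromosome 7. Others were Abca8b, Abca8a, Abca9 and Abca6 on chromosome 11, where the next gene, Abca5, had 28 to 42 counts per library. Of 14 adjacent pairs of members within 250 kb, 5 had both genes tested, 7 neither and 2 just 1. The ABC genes whose symbols fall outside the pattern, Tap1, Tap2 and Cftr, were listed at 0. Tap1 and Tap2 have copies on alternate scaffolds of the genome, so their zeros are not read as a lack of expression. Abcf1 has copies too, in rows Abcf1_1 and Abcf1_2, whose counts are not part of its level here. With the counts of such copies added to their genes, edgeR called 5 members higher and 0 lower.

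Added up, the 50 members took 2372 ± 7.55 CPM of the unscaled library total with RGX-104 and 2083 ± 14.6 in controls (SD, n = 4 each). Subfamily A was 53.2% higher in share, at 500.0 to 534.4 CPM with RGX-104 and 304.9 to 364.8 in controls. Subfamily G stood at 178.9 to 188.9 with RGX-104 and 64.43 to 69.03 in controls. Subfamily B was 3.4% higher, at 416 to 432.2 CPM with RGX-104 and 405.3 to 410.9 in controls, without overlap. Subfamilies C, D, E and F differed by at most 4.05% in either direction. Without Abca1 and Abcg1 the family held 2088 ± 2.78 CPM with RGX-104 and 2038 ± 13.1 CPM in controls. Abca1 made up 23.8% to 24.7% of the reads of subfamily A with RGX-104 and 0.414% to 0.573% in controls. For Abcg1 in subfamily G the shares were 86.3% to 87.3% with RGX-104 and 64.0% to 65.9% in controls.

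**Figure D4:**
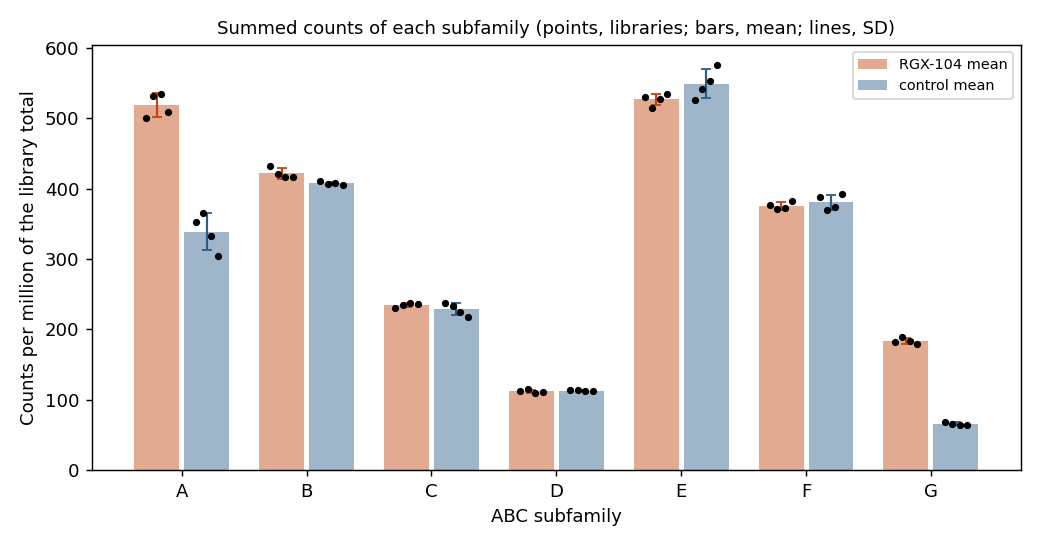
Summed reads of each ABC subfamily in CPM of the unscaled library total, with RGX-104 (orange, left) and in controls (blue, right), as the mean of 4 libraries (bars), its SD (lines) and the libraries (points). Subfamilies A and G are higher with RGX-104, by 180 and 117 CPM, and the bars of each other subfamily differ by at most 22.3 CPM.

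Genes beside the called members were also read. Within 250 kb of Abca1 both of the 2 tested genes were higher. Lexis1, a noncoding RNA gene 44941 bases away, had 4.69, 5.09, 4.21 and 4.84 CPM with RGX-104, against 0.115, 0.0295, 0.0828 and 0.0539 CPM in controls (edgeR adjusted p = 1.3e-16). Its control libraries held only a few reads, down to 1, so no fold is given. Nipsnap3b, 8728 bases away on the other side, averaged 37.9 CPM with RGX-104 and 34.0 CPM in controls (log2 fold change 0.16 ± 0.04, edgeR adjusted p = 0.0130). Around Abcg1, 0 of 6 tested neighbours were called by edgeR, DESeq2 or limma-voom, with 2 higher and 0 lower at an unadjusted p under 0.05.

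Around Abca2, 3 of 33 tested neighbours were higher by edgeR and 0 lower, with 7 higher and 2 lower at an unadjusted p under 0.05 (DESeq2 called 2 higher and 0 lower, limma-voom 3 and 0). These counts are near the shares over all genes tested, 8.95% called and 22.2% with an unadjusted p under 0.05. Fut7, a fucosyltransferase that builds selectin ligands, lies 2224 bases from Abca2 and averaged 6.56 ± 0.380 CPM with RGX-104 and 2.71 ± 0.219 CPM in controls (SD, n = 4 each; edgeR adjusted p = 4.53e-10). Npdc1 averaged 3.62 ± 0.302 CPM with RGX-104 and 2.32 ± 0.595 CPM in controls, and Dpp7 averaged 7.18 ± 0.128 CPM with RGX-104 and 5.97 ± 0.354 CPM in controls. The log2 fold changes of Fut7 and Npdc1, 1.27 and 0.64, were larger than the 0.30 of Abca2 itself. Near Abca7, Arhgap45 and Cbarp were higher and Arid3a was lower by edgeR among 28 tested, while DESeq2 called 1 higher and 2 lower, limma-voom 2 higher and 1 lower, and 2 were higher and 6 lower at an unadjusted p under 0.05. Near Abcb1b 0 of 6 were called by edgeR, DESeq2 or limma-voom or had an unadjusted p under 0.05.

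The partners of the cholesterol exporters moved in part. This list, like the other gene lists here, was drawn up with earlier results of these data known, so its count is no independent evidence. Of 22 tested genes for LXR signalling and sterol movement, 8 were higher and 1 was lower by edgeR, with a median log2 fold change of 0.08. Over all genes tested 4.82% were called higher and 4.13% lower. Rxra, a retinoid X receptor that pairs with LXR, averaged 20.4 ± 0.333 CPM with RGX-104 and 11.6 ± 0.571 CPM in controls. Its log2 fold change was 0.82 ± 0.05 (edgeR adjusted p = 1.46e-11). Rxrb, another such receptor, had at most 1 count in any library and could not be tested. The reason for the low Rxrb counts was not tested, and they are not read as a lack of expression. The LXR genes did not pass the edgeR test, Nr1h2 at 83.8 ± 0.758 CPM with RGX-104 and 88.2 ± 1.74 CPM in controls (adjusted p = 0.126) and Nr1h3 at 0.699 ± 0.0945 CPM with RGX-104 and 0.804 ± 0.0673 CPM in controls (adjusted p = 0.613). Gramd1a and Gramd1b, carriers of cholesterol from the plasma membrane to the endoplasmic reticulum, averaged 209 ± 4.60 and 270 ± 3.09 CPM with RGX-104, against 180 ± 3.68 and 246 ± 11.9 CPM in controls (edgeR adjusted p = 6.81e-06 and 0.00432). Of the pair that releases cholesterol from lysosomes, Npc1 was higher (66.0 ± 1.35 against 58.3 ± 0.674 CPM) and Npc2 lower (224 ± 4.12 against 254 ± 6.70 CPM), with edgeR adjusted p of 4.04e-04 and 5.51e-05. The lipoprotein receptor gene Scarb1 was higher by 0.10 on the log2 scale (adjusted p = 0.0262). Arl4c and Mylip, known LXR targets, and Lexis1 were higher as well. The other genes of the list were not called. Among them, Apoe averaged 28.4 CPM with RGX-104 and 26.8 CPM in controls (edgeR adjusted p = 0.382). Pltp averaged 2.79 CPM with RGX-104 and 2.96 CPM in controls (adjusted p = 0.724).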

How the data were processed

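RNA was sequenced from 8 libraries of sorted OT-I T cells. The authors deposited raw counts per gene, with no normalization. The submitters' processing notes name cutadapt 2.10, STAR 2.7.5, R 4.1.0, DESeq2 1.4 and build GRCm38. The counter, the annotation and any use of strand were not given in the sources used here, so overlapping and near-identical genes are uncertain. Control columns matched samples, and RGX-104 columns showed only their group and are numbered by column.

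Genes passing filterByExpr (minimum count 10, minimum total 15) were tested with edgeR 4.0.16 (R 4.3.3) by the robust quasi-likelihood F-test, with TMM scaling and Benjamini-Hochberg adjustment over all genes tested. SE and 95% intervals were derived from the F statistic. DESeq2 1.42.0, limma 3.58.1 (voom) and sva 3.50.0 gave alternatives. Exon lengths are unions over GENCODE M21 (GRCm38) and positions are from RefSeq GRCm38.p6. Values in every library are given for called members, the highest member per kb of each subfamily and a fixed set of members (a few genes are not reported here), and the neighbours, promoter CG content and looser DR4 rule were added after results were seen. A planned description of protein motifs was not analysed here. The family and the gene lists were taken up with earlier results of these data known.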

Additional observations from a re-analysis of the deposited data

Results flagged for a closer look

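Of 58 groups of 4 libraries, 3 held a library far from the other 3 of its group by Dixon's test, which chance does in about 1 of 20 groups. Abcb6 stood at 40.2 CPM in RGX-104 replicate 3 and at 42.5 to 42.7 CPM in the other RGX-104 libraries. Abcb10 stood at 21.3 CPM in RGX-104 replicate 3 and at 22.5 to 22.7 CPM in the others. Abcd3 stood at 68.7 CPM in control replicate 4 and at 64.8 to 65.1 CPM in the others.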

How the results depend on the processing

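Abca1 and Abcg1 were called higher in all 20 alternatives, with log2 fold changes of 6.10 to 6.29 and 1.86 to 1.89. Against a fold of 1.2 the family had 2 members called higher, and with 1 surrogate variable it had 3 (Abca1, Abca7 and Abcg1). Over all genes these fits called 65 higher and 45 lower, and 380 higher and 294 lower, against 640 and 549 in the edgeR test reported. The cause was not tested. With 1 library left out at a time, 4 to 6 members were higher and 0 to 1 lower (Abce1 without control replicate 1, Abcb8 without control replicate 4), and the members' median log2 fold change ran from 0.0351 (without control replicate 3; 0.0365 without RGX-104 replicate 2) to 0.0803. Without Abca1 and Abcg1 the difference in the family's share was 49.2 CPM, against 289 CPM with them. Of 576 values of single members under alternatives, 8 lost a call, 9 gained one, 559 stayed on their side of the threshold, and no call changed direction. Members of about 1 CPM or less were limited by depth. The sample titles share no replicate numbers between groups, but the column names do. The deviations of same-numbered libraries from their group means correlated at 0.0430 to 0.157, and 7 of 8 libraries correlated best with their own number, a hint from the data and not from the design. A replicate block on these numbers, chosen after seeing the data, gave 7 members higher (adding Abcb10 and Abcc5) and 2 lower (Abcb8 and Abce1), with 1109 higher and 906 lower over all genes.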
